A study of Bos taurus with 15 samples.

Results

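T cells recognise antigen through the T cell receptor, which reaches the cell surface only together with the CD3 chains and the zeta chain. After the receptor is engaged, the kinase LCK, which is held by the co-receptors CD4 or CD8, starts the signal inside the cell. Cytotoxic T cells and natural killer cells kill target cells with perforin, which opens the target membrane, and granzymes, proteases that then enter the target. In adipose tissue these lymphocytes are a minor population beside adipocytes, endothelial cells and macrophages.

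The genes described here are 10 genes of T cells and cytotoxic lymphocytes: *CD3D*, *CD3E*, *CD3G*, *CD247*, *CD2*, *CD4*, *CD8A*, *LCK*, *GZMB* and *PRF1*. They were chosen by name, and all 10 were found among the 13896 genes listed in each of 6 comparison tables. RNA was sequenced from subcutaneous adipose tissue of the dewlap of primiparous Prim Holstein dairy cows, in 15 libraries, 3 in each of 5 groups. The first group was sampled 4 weeks before calving (-4 wkpp, weeks peripartum), before the diets began. The SNEB groups (severe negative energy balance) received a low energy diet and the MNEB groups (moderate negative energy balance) a high energy diet from that time on, and both were sampled at 1 and 16 wkpp. The cows sequenced were those with the most extreme energy balance at 1 wkpp, and the labels do not tie libraries to cows across time points. The tables show 1 set of 3 libraries at -4 wkpp, which serves as the reference for both diets. The libraries are of bulk tissue, in which fewer T cells and less RNA per T cell cannot be told apart.

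Reads on exons and reads on the whole gene, introns included, were analysed separately, and a gene was called when the adjusted p-value (limma, Benjamini-Hochberg) was below 0.01 in both with the same direction. Levels are read counts divided by the size factor of the library, and are compared between groups but not between genes, since no gene length of the build used was at hand. Replicate 1 is the deepest library of its group. Exonic reads on genes were between 7619222 and 14139305 per library in the -4 wkpp and SNEB groups and between 2184380 and 7456595 in the MNEB groups. The synthetic spike-in RNAs took 2.79 to 17.99% of the exonic reads in the MNEB libraries and 0.186 to 1.54% in the others. The titles of the libraries carry a code whose meaning is not given. It is the same at -4 wkpp, SNEB 16 wkpp and MNEB 1 wkpp and differs from that of SNEB 1 wkpp and MNEB 16 wkpp, so in comparisons across the codes what it marks cannot be told apart from the group. The lower depth of the MNEB libraries accompanies each comparison with MNEB below, and its part in those results was not tested. Of a list of 6 adipocyte genes, 5 were in the tables and had reads in every group, with a summed normalized exonic count of 41184 to 86795 per library at -4 wkpp and in SNEB cows and of 9169 to 55303 in MNEB cows. *ADIPOQ* was not listed.

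None of the 10 genes was called in any of the 6 comparisons. The genes lay at low read numbers, from 0 to 328 exonic reads per library, and most groups overlapped. The widest fitted differences in the exon analysis of these comparisons were those of *GZMB* between the MNEB groups and the others, and that of *CD3D* between -4 wkpp and MNEB 1 wkpp. In the order of the 5 group means, 40 pairs of neighbouring groups were compared over the 10 genes, and the ranges of the exonic counts did not overlap in 3 of them. These were SNEB 1 wkpp above MNEB 16 wkpp for *CD3D*, SNEB 16 wkpp above MNEB 16 wkpp for *GZMB*, and MNEB 16 wkpp above MNEB 1 wkpp for *GZMB*. The share of such pairs over all genes was not determined, so this count is a description. Where MNEB cows were compared with -4 wkpp or SNEB cows, 19.3 to 23.3% of all genes had lower, non-overlapping exonic counts in MNEB cows.

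**Figure D1:**
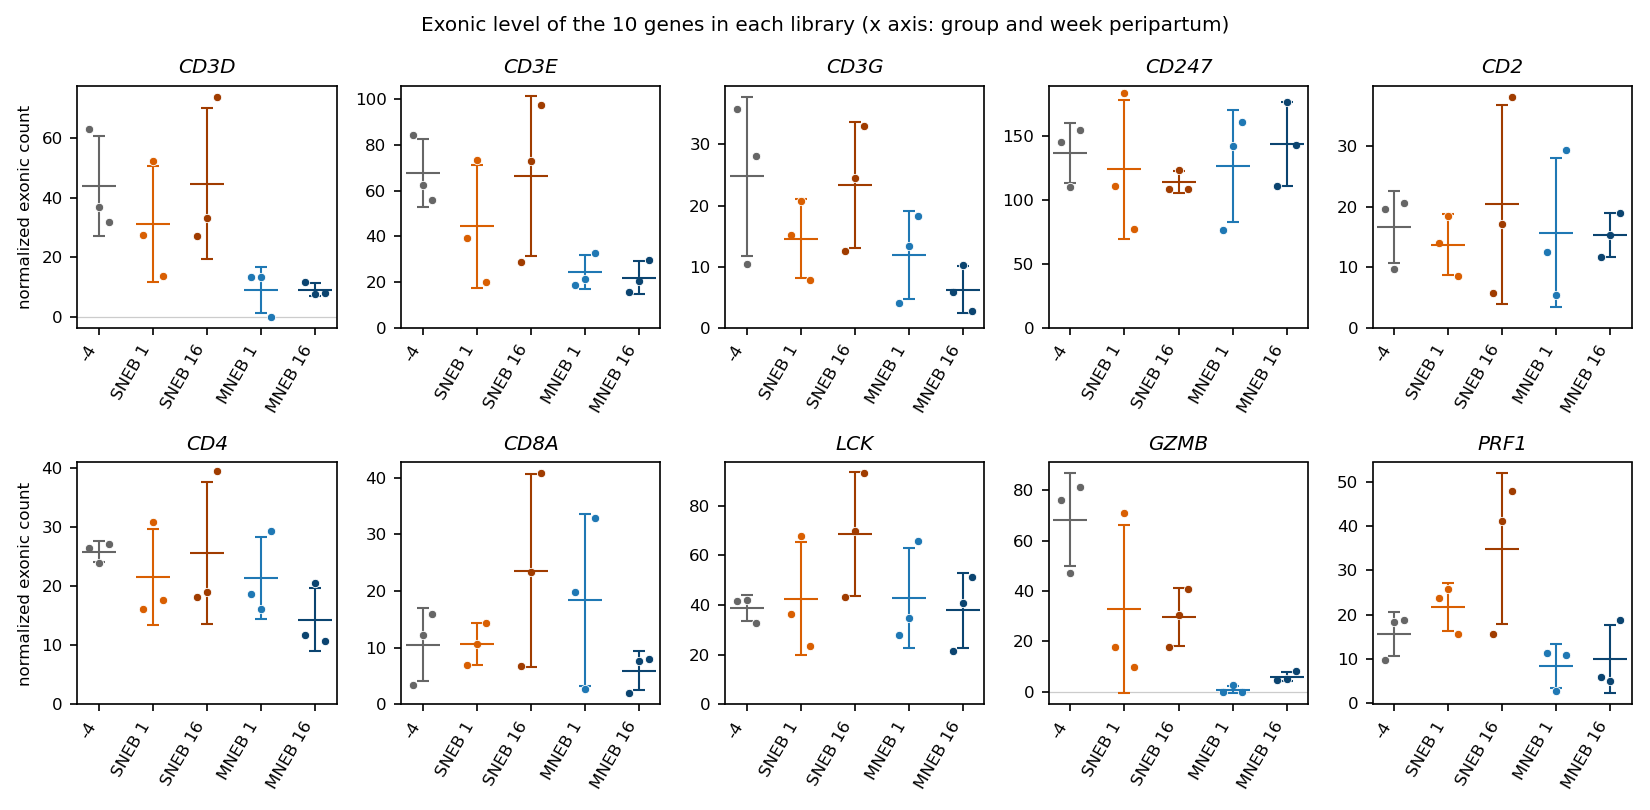
Normalized exonic count (y axis) of each of the 10 genes in the 3 libraries of each group (points, the deepest library to the left), with the group mean (bar) and SD (whiskers). *GZMB* lay between 47.1 and 81.4 at -4 wkpp and between 0 and 8.10 in the 6 MNEB libraries, whereas *CD247* and *CD2* overlapped between all groups.

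*CD3D*, *CD3E* and *CD3G* encode the delta, epsilon and gamma chains of CD3. The normalized exonic count of *CD3D* was 62.9, 36.7 and 31.8 at -4 wkpp, 27.6, 52.1 and 13.7 in SNEB cows at 1 wkpp, and 27.1, 33.1 and 73.7 in SNEB cows at 16 wkpp. In MNEB cows it was 13.5, 13.5 and 0 at 1 wkpp and 11.7, 7.70 and 8.10 at 16 wkpp. All 6 MNEB libraries thus lay below each of the 9 others, and the highest MNEB values stood close to the lowest SNEB value. The share of all genes with such an order of 6 against 9 libraries was not determined. The MNEB values rest on 0 to 13 exonic reads per library, and the count of 0 in MNEB 1 wkpp replicate 3 allows a level of up to 11.0 (3 reads at its depth). In the whole gene analysis the SNEB and MNEB groups overlapped at 1 wkpp, as MNEB 1 wkpp replicate 2 stood at 25.4 and SNEB 1 wkpp replicate 3 at 13.1.

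*CD3E* showed a normalized exonic count of 84.3, 62.4 and 56.1 at -4 wkpp, of 39.5, 73.4 and 20.3 in SNEB cows at 1 wkpp and of 28.6, 73.0 and 97.6 in SNEB cows at 16 wkpp. In MNEB cows it was 18.7, 21.5 and 32.9 at 1 wkpp and 15.6, 20.5 and 29.7 at 16 wkpp. In exons the MNEB libraries lay below all libraries at -4 wkpp but overlapped with those of SNEB cows at both time points. In whole genes the MNEB libraries at 1 wkpp (33.1 to 86.5) overlapped with those at -4 wkpp (74.7 to 119) as well. For *CD3G*, the exonic group means were 24.7 ± 13.0 (SD, n = 3) at -4 wkpp, 14.6 ± 6.47 and 23.3 ± 10.3 in SNEB cows at 1 and 16 wkpp, and 12.0 ± 7.19 and 6.27 ± 3.80 in MNEB cows at 1 and 16 wkpp. Its values at -4 wkpp, 35.8, 10.4 and 28.1, overlapped with those of every other group except for MNEB 16 wkpp, where they ran from 2.70 to 10.3. In whole genes the order turned, and *CD3G* had its highest group mean in MNEB 1 wkpp, 65.1 ± 50.2, beside 45.7 ± 23.6 at -4 wkpp.

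*CD247* encodes the zeta chain, which carries the signal of the receptor and is also used by natural killer cells. Its normalized exonic count was 137 ± 23.5 at -4 wkpp, 124 ± 54.5 and 114 ± 8.61 in SNEB cows at 1 and 16 wkpp, and 127 ± 44.2 and 144 ± 32.8 in MNEB cows at 1 and 16 wkpp (SD, n = 3). In exons the 5 groups overlapped, and MNEB 16 wkpp had the highest mean, unlike for the 3 CD3 chains. *CD2*, an adhesion receptor of T cells and natural killer cells, had means between 13.7 ± 5.01 (SNEB 1 wkpp) and 20.3 ± 16.4 (SNEB 16 wkpp), and its groups overlapped as well.

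*CD4* and *CD8A* encode the co-receptors of helper and of cytotoxic T cells. *CD4* had a normalized exonic count of 25.8 ± 1.74 at -4 wkpp, 21.6 ± 8.04 and 25.6 ± 12.0 in SNEB cows at 1 and 16 wkpp, and 21.4 ± 6.96 and 14.4 ± 5.36 in MNEB cows at 1 and 16 wkpp. *CD8A* was measured with 1 to 63 exonic reads per library. Its values were 6.77, 23.3 and 40.7 in SNEB cows at 16 wkpp and 19.8, 2.69 and 32.9 in MNEB cows at 1 wkpp. Within each of these groups the highest library was thus several times the lowest, a spread that no difference between group means exceeded. *LCK*, the kinase of the co-receptors, was at 38.8 ± 5.30 at -4 wkpp, 42.5 ± 22.8 and 68.8 ± 25.0 in SNEB cows and 43.0 ± 20.1 and 38.0 ± 15.1 in MNEB cows at 1 and 16 wkpp.

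*GZMB* encodes granzyme B, a protease of the granules of killer cells. Its normalized exonic count was 76.2, 47.1 and 81.4 at -4 wkpp, 17.9, 71.2 and 9.81 in SNEB cows at 1 wkpp and 17.7, 30.7 and 40.7 in SNEB cows at 16 wkpp. In MNEB cows at 1 wkpp it was 0, 2.69 and 0, and at 16 wkpp it was 4.89, 5.13 and 8.10. All MNEB libraries lay below all others, and those at 1 wkpp below those at 16 wkpp. The share of all genes ordered in this way was not determined. The values at MNEB 1 wkpp rest on 0, 1 and 0 reads, and 3 reads would correspond to 3.12, 8.07 and 11.0 in these libraries. These floors reach the values of MNEB 16 wkpp and that of SNEB 1 wkpp replicate 3, so the order of the MNEB groups is not bounded at this depth. In reads, MNEB 1 wkpp held 1 exonic read in its 3 libraries together and MNEB 16 wkpp held 10, against 296 at -4 wkpp, 175 in SNEB 1 wkpp and 147 in SNEB 16 wkpp. *GZMB* belongs to a family of similar proteases, and reads shared with a relative could not be followed in these tables.

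*PRF1* encodes perforin. Its normalized exonic count was 9.81, 18.4 and 18.7 at -4 wkpp, 23.8, 25.8 and 15.7 in SNEB cows at 1 wkpp and 15.6, 41.1 and 47.8 in SNEB cows at 16 wkpp. In MNEB cows it was 11.4, 2.69 and 11.0 at 1 wkpp and 5.86, 5.13 and 18.9 at 16 wkpp. The libraries of SNEB 1 wkpp lay above those of MNEB 1 wkpp, while at -4 wkpp, where *GZMB* was highest, *PRF1* overlapped with both MNEB groups.

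The libraries before calving were compared with those of each diet after calving. Between -4 wkpp and MNEB 1 wkpp, 9 of the 10 genes had enough exonic reads to be tested, and *PRF1* was tested in the whole gene analysis alone. None was called, where 1.74% of the 10403 genes tested in both analyses were. *GZMB* passed the threshold in the exon analysis, with a log2 fold change of 5.54 (SE 1.24, adjusted p = 0.00789), but not in the whole gene analysis (4.96, SE 1.75, adjusted p = 0.133). It passed the filter through the libraries at -4 wkpp alone, with a group mean of 68.2 against 0.897 in MNEB 1 wkpp, and so had to differ once it was tested. Its fitted fold change depends on how a single read is treated. For a depth-scaled ratio, the summed exonic reads of each group were divided by its summed size factors. This ratio was 107, with a 95% counting interval (exact) of 19.1 to 4248. Across 13 alternative settings, the exonic adjusted p-value of *GZMB* lay between 0.000779 and 0.0274 and that of the whole gene analysis between 0.0137 and 0.348.

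In the same comparison, *CD3E* differed by 1.60 (SE 0.49, exonic adjusted p = 0.0312) and *CD3D* by 2.25 (SE 0.92, exonic adjusted p = 0.0886), both with higher values at -4 wkpp, and neither passed the threshold of 0.01. *CD3D* stood at 1.61 without MNEB 1 wkpp replicate 3 and at 2.96 without MNEB 1 wkpp replicate 1. With a group mean of 8.99 in MNEB 1 wkpp, it passed the filter through the libraries at -4 wkpp alone. The whole gene differences of *CD3E* and *CD3D* were 1.04 (SE 0.57, adjusted p = 0.317) and 1.31 (SE 0.99, adjusted p = 0.488). *CD3G*, *CD247*, *CD2*, *CD4*, *CD8A* and *LCK* lay between -0.82 and 1.36 in the exon analysis, and their differences lay within 2 SE of 0. In the exon analysis 3 of 9 genes had an unadjusted p-value below 0.05 (limma), against 42.3% of all genes tested, and in the whole gene analysis 1 of 10 had (*GZMB*), against 25.3%. The exonic counts of 3 genes did not overlap between the groups, all with -4 wkpp above, which held for 23.3% of all genes tested. In whole genes this was so for 2 genes (*CD3D* and *GZMB*), against 17.3%. The median log2 fold change of the 9 genes was 0.34, and that of all genes tested 0.05.

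For SNEB cows, none of the 10 genes was called between -4 and 1 wkpp, where 0.0378% of all genes tested were. The 3 libraries at -4 wkpp are the same as in the comparison with MNEB cows. *GZMB* had the largest log2 fold change, 1.43 (SE 0.61, exonic adjusted p = 0.326), and 1.46 (SE 0.68, adjusted p = 0.508) in the whole gene analysis. SNEB 1 wkpp replicate 2, with a count of 71.2, lay within the range of -4 wkpp. Without this library the exonic value was 2.24 (adjusted p = 0.0344), and without SNEB 1 wkpp replicate 3 it was 0.87 (adjusted p = 0.673). The other 9 genes lay between -0.54 (*PRF1*) and 0.76 (*CD3E*, SE 0.44, exonic adjusted p = 0.489). Without SNEB 1 wkpp replicate 3, *CD3E* stood at 0.33 and *CD3D* at 0.19 (0.63 with all libraries), and without SNEB 1 wkpp replicate 2 they stood at 1.21 and 1.10. An unadjusted p-value below 0.05 was found for 1 of 10 genes in exons, against 14.4% of all genes, and for 0 of 10 in whole genes, against 10.6%. The 95% interval of *CD3E* ran from -0.24 to 1.77 and that of *CD3D* from -0.52 to 1.79, and differences up to these bounds lie within what these libraries allow.

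**Figure D2:**
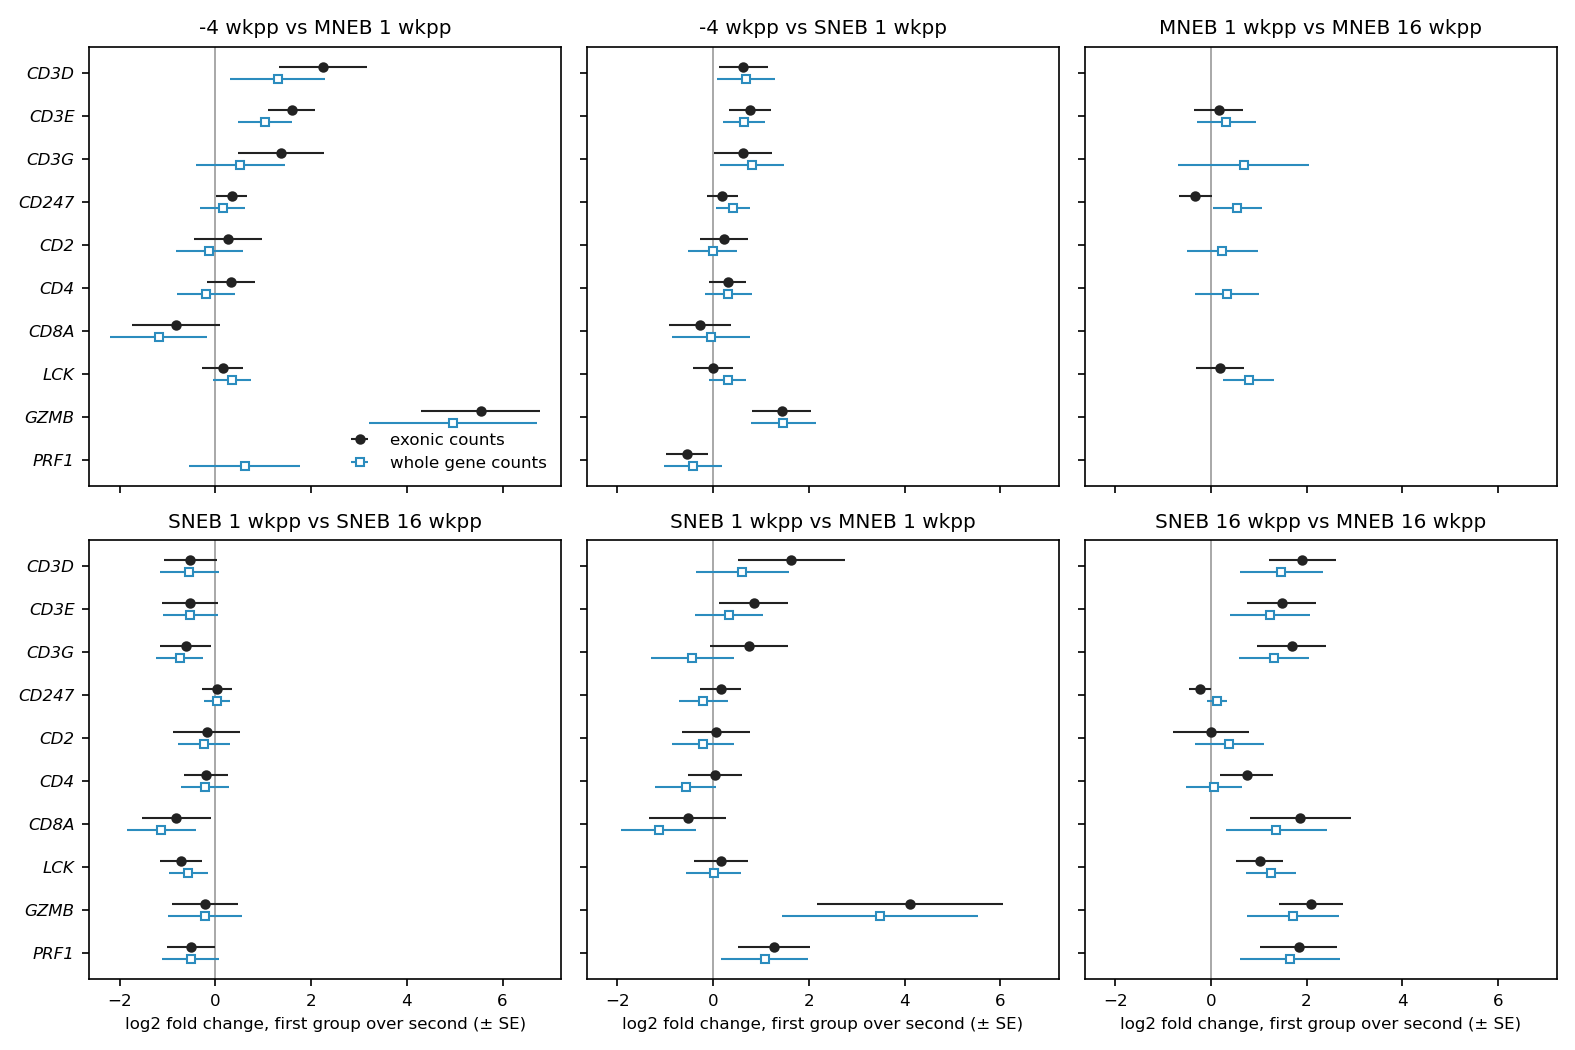
Log2 fold change (x axis, first group over second, ± SE from limma) of each of the 10 genes in the 6 comparisons, from exonic counts (black) and whole gene counts (blue, open), with genes below the count filter left out. *GZMB* stood at 5.54 in the exon analysis between -4 wkpp and MNEB 1 wkpp, and 9 of 10 genes were to the right of 0 in the exon analysis between SNEB and MNEB at 16 wkpp. Of these, *CD3D*, *CD3G*, *CD8A*, *GZMB* and *PRF1* passed the filter through the SNEB libraries alone.

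Between 1 and 16 wkpp, none of the 10 genes was called in MNEB cows, and 0% of the 9791 genes tested in both analyses were. Only *CD3E*, *CD247* and *LCK* passed the filter of a mean normalized exonic count of 10, with log2 fold changes of 0.16 (SE 0.51), -0.32 (SE 0.35) and 0.20 (SE 0.50). No exonic p-value of the 3 genes was below 0.05 before adjustment, against 13.5% of all genes, and no whole gene p-value of the 6 genes tested there, against 11.9%. In whole genes 6 of the 10 genes passed, all with positive values, from 0.24 (*CD2*) to 0.79 (*LCK*, SE 0.53), and *CD247* turned its sign, to 0.55 (SE 0.51). *GZMB*, with 1 exonic read at 1 wkpp and 10 at 16 wkpp, was below the filter. In the fit with no filter its log2 fold change was -2.27 (SE 0.98, exonic adjusted p = 0.466), and -1.91 (SE 0.89, adjusted p = 0.525) in whole genes. In SNEB cows, none of the 10 genes was called either (0% of 10485 genes tested). In the fit of exonic counts, 9 of them had negative log2 fold changes (1 over 16 wkpp), from -0.18 (*CD2*, SE 0.71) to -0.81 (*CD8A*, SE 0.72), and *CD247* stood at 0.04 (SE 0.31). These signs turned with single libraries for 3 of the 9 genes. *GZMB* reached 0.35 without SNEB 1 wkpp replicate 3, and *CD2* and *CD4* reached 0.43 and 0.15 without SNEB 16 wkpp replicate 3. Over the 13 alternatives *CD8A* ran from -1.59 to -0.27, *CD3D* from -0.99 to -0.08 and *CD3E* from -1.09 to -0.09. No p-value was below 0.05 before adjustment, against 7.20% of all genes in exons and 6.53% in whole genes, and the median of the 10 genes was -0.51 beside -0.01 for all genes. SNEB 16 wkpp replicate 3 was the highest library of its group for *CD3D*, *CD3E*, *CD3G*, *CD2*, *CD4*, *CD8A*, *LCK*, *GZMB* and *PRF1*, and SNEB 1 wkpp replicate 3 the lowest of its group for 7 of these 9.

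The severity of NEB was compared at 1 wkpp and at 16 wkpp. At 1 wkpp, none of the 10 genes was called (0% of 10357 genes tested). *GZMB* had a higher exonic count in each SNEB library than in each MNEB library, with a log2 fold change of 4.12 (SE 1.94, exonic adjusted p = 0.178). MNEB 1 wkpp replicate 3 had 0 reads, which allows up to 11.0, above SNEB 1 wkpp replicate 3 at 9.81, so this order is not bounded. In exons, *GZMB*, *CD3D* and *PRF1* passed the filter through the SNEB libraries alone, with means of 0.897, 8.99 and 8.37 in MNEB 1 wkpp. The direction of their means was thus fixed once they were tested. The depth-scaled ratio of the summed exonic reads of *GZMB* was 54.5 with a counting interval of 9.65 to 2163. Of the 175 SNEB reads, 127 were in replicate 2, and without this library *GZMB* was below the filter. Over 12 alternatives its value lay between 2.46 and 4.68. The exonic counts of *PRF1* (1.27, SE 0.75, exonic adjusted p = 0.275) and *CD3D* (1.63, SE 1.12, exonic adjusted p = 0.344) did not overlap between the groups either. *CD3D* stood at 0.99 without MNEB 1 wkpp replicate 3 and at 2.37 without MNEB 1 wkpp replicate 1. Such a lack of overlap with SNEB above was thus found for 3 of 10 genes in exons, against 19.3% of all genes tested, and no p-value of the 10 genes was below 0.05 before adjustment, against 32.3% in exons and 19.3% in whole genes. In whole genes, *GZMB* and *PRF1* remained without overlap, whereas *CD8A* did not overlap in the opposite direction, with 7.58 to 16.1 in SNEB and 16.9 to 50.4 in MNEB cows. Over all genes tested in whole genes, 15% did not overlap with SNEB above and 18.2% with SNEB below. SNEB cows had the higher fitted level for 9 of 10 genes in the exon analysis but for 5 of 10 in the whole gene analysis, with medians of 0.45 and -0.09 beside 0.07 and 0.02 for all genes tested.

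At 16 wkpp, none of the 10 genes was called, against 3.66% of all genes tested, and SNEB cows had the higher fitted level for 9 of 10 genes in the exon analysis and for 10 of 10 in the whole gene analysis. The median log2 fold change was 1.58 in exons and 1.28 in whole genes, beside 0.03 and 0.01 for all genes tested. In exons, *CD3D*, *CD3G*, *CD8A*, *GZMB* and *PRF1* had group means of 5.92 to 9.97 in MNEB 16 wkpp, below the filter of 10. They passed it through the SNEB libraries alone, so the direction of their means was fixed once they were tested. In whole genes this held for *CD8A* (9.60) and *GZMB* (7.55). The medians and the counts by direction are therefore a description. *GZMB* stood highest, at 2.09 (SE 0.67, exonic adjusted p = 0.0491), followed by *CD3D* at 1.91 (SE 0.70, exonic adjusted p = 0.0763), *CD8A* at 1.87 (SE 1.05, exonic adjusted p = 0.224) and *PRF1* at 1.83 (SE 0.80, exonic adjusted p = 0.124). The value of *CD8A* moved most with single libraries. It was 0.96 without MNEB 16 wkpp replicate 1 and 2.67 without SNEB 16 wkpp replicate 1, its exonic adjusted p-value lay between 0.0492 and 0.640 over 12 alternatives, and without SNEB 16 wkpp replicate 3 the gene was below the filter. The depth-scaled ratio of the summed exonic reads of *GZMB* was 5.14 (counting interval 2.72 to 11.0). *CD3G* stood at 1.69 (SE 0.72), *CD3E* at 1.48 (SE 0.72) and *LCK* at 1.02 (SE 0.49), or at 0.45 without MNEB 16 wkpp replicate 1. *CD4* stood at 0.75 (SE 0.55), *CD2* at 0.01 (SE 0.79) and *CD247* at -0.22 (SE 0.23). Over 13 alternatives *PRF1* ran from 1.43 to 2.39, *CD3E* from 1.13 to 2.06 and *CD2* from -0.60 to 0.78. The counts of *CD3D*, *CD3G* and *GZMB* did not overlap between the groups in either analysis, and such a lack of overlap with SNEB above was found for 22.3% of all genes in the exon analysis and for 18.8% in the whole gene analysis. In the exon analysis, 4 of 10 genes had an unadjusted p-value below 0.05, against 38.5% of all genes, and in the whole gene analysis 1 of 10 had (*LCK*, 1.25, SE 0.52, adjusted p = 0.152), against 29.7%.

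Whether SNEB and MNEB cows differed in their change between 1 and 16 wkpp was tested in a single fit of 12 libraries. None of the 10 genes was called (0% of 10237 genes tested) and none had an unadjusted p-value below 0.05 (4.97% of all genes in exons and 4.66% in whole genes). The difference was -2.41 (SE 1.42) for *CD8A* and 2.09 (SE 1.88) for *GZMB*, with exonic adjusted p-values of 0.986 and 0.992, and the intervals of both included 0. Over 18 alternatives they ran from -3.21 to -1.48 and from 0.82 to 2.62. No difference between SNEB and MNEB cows in the time course of these genes was detectable at this depth. Diet, depth and the title code differ between these groups as well and cannot be told apart from NEB.

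The libraries were made without selection of polyadenylated RNA, so reads on introns, which come largely from unspliced RNA, were counted in the whole gene analysis. Over all libraries, whole gene reads per exonic read were 1.04 for *GZMB*, 1.06 for *CD3D* and *PRF1*, 1.31 for *CD8A*, 1.45 for *CD4*, 1.55 for *CD3E*, 1.86 for *LCK*, 1.95 for *CD3G*, 2.62 for *CD2* and 2.80 for *CD247*. Over all libraries the whole gene analysis therefore added few reads to *GZMB*, *CD3D* and *PRF1*, but in MNEB 1 wkpp it raised *CD3D* from 13, 5 and 0 reads to 15, 9 and 4. Summed over the 10 genes, the ratio was between 1.32 and 2.50 in 13 libraries, but 3.57 and 3.65 in MNEB 1 wkpp replicates 2 and 3, while all genes together had a ratio of 1.80 and 1.69 in these 2 libraries. *CD3G* had 14 exonic and 69 whole gene reads in MNEB 1 wkpp, and *CD247* had 171 and 600. In whole genes MNEB 1 wkpp had the highest mean of the 5 groups for *CD3G*, *CD247*, *CD2* and *CD4*. The 2 analyses differed in sign for 4 of the 10 genes between SNEB 1 wkpp and MNEB 1 wkpp. *CD3G* stood at 0.75 (SE 0.81) in exons and -0.43 (SE 0.86) in whole genes, *CD4* at 0.04 and -0.57, *CD247* at 0.16 and -0.20, and *CD2* at 0.06 and -0.21, and the intervals of these values included 0. The signs also differed for *CD2* and *CD4* between -4 wkpp and MNEB 1 wkpp, for *CD2* and *LCK* between -4 wkpp and SNEB 1 wkpp, and for *CD247* in the comparisons of 1 with 16 wkpp in MNEB cows and of SNEB with MNEB cows at 16 wkpp. The ratio is a description of reads, and a test of it was not made.

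**Figure D3:**
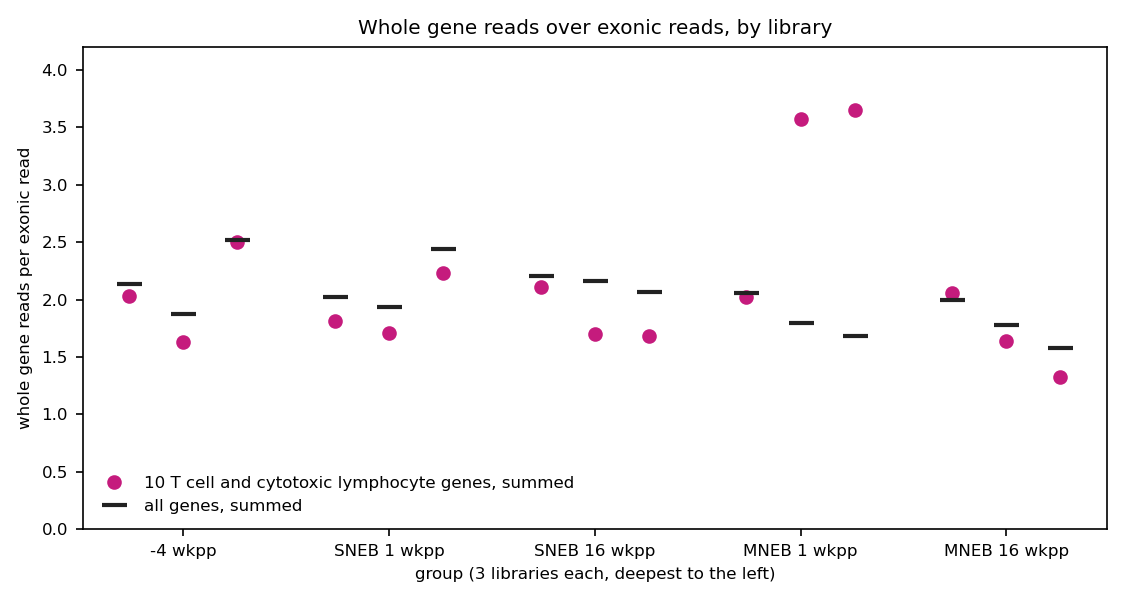
Whole gene reads per exonic read (y axis) in each of the 15 libraries, summed over the 10 T cell and cytotoxic lymphocyte genes (points) and over all genes (bars). MNEB 1 wkpp replicates 2 and 3 stood at 3.57 and 3.65 for the 10 genes and at 1.80 and 1.69 for all genes.

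Other genes of T cells and killer cells were taken from 4 lists. Of 20 genes of T cell receptor signalling, 18 were listed in the tables. Between -4 wkpp and MNEB 1 wkpp, 1 of 18 was called, against 1.74% of all genes tested. This was *PLCG1*, a phospholipase of the receptor pathway that many other cells also use. Its log2 fold change was -2.21 (SE 0.22, exonic adjusted p = 0.000166), with a normalized exonic count of 1181 to 1584 at -4 wkpp and of 5124 to 7593 in MNEB 1 wkpp. In the comparison of SNEB 16 wkpp with MNEB 16 wkpp, 3 of the 17 genes of this list that were tested were called, against 3.66% of all genes tested. *PTPRC*, which encodes CD45 of all leukocytes, was higher in SNEB cows, by 1.57 (SE 0.21, exonic adjusted p = 0.00145), and *PLCG1* (-1.49, SE 0.17, exonic adjusted p = 0.000984) was lower. *PTPRC* was at 972, 851 and 1277 in SNEB and at 329, 385 and 324 in MNEB cows. In the 4 remaining comparisons no gene of this list was called.

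No gene of the 3 other lists was called in any comparison. In the exon analysis between SNEB and MNEB at 16 wkpp, the lists held 7 tested genes of costimulation and T cell surface out of 13 in the tables, 13 of 16 transcription factors and homing receptors, and 6 of 16 cytotoxic and natural killer genes. The summed normalized exonic count of the 16 cytotoxic and natural killer genes was 1393 to 3246 at -4 wkpp and in SNEB cows and 743 to 1292 in MNEB cows. Other members than the granzymes made up most of this sum. At -4 wkpp replicate 1, with a sum of 2171, *NKG7* stood at 105, *KLRK1* at 12.7, *GZMA* at 1.15 and *GZMK* at 0.577. In all, 10 of the 16 genes were below the filter at 16 wkpp, and *GNLY* and *XCL1*, which encode a granule protein and a chemokine, had no exonic read in any MNEB library. The sum of the T cell receptor signalling list ran the other way, with 8540 to 16613 in MNEB cows above 6191 to 8445 in the others. The sums of the costimulation list (105 to 318 against 89.6 to 285) and of the list of transcription factors and homing receptors (1180 to 2911 against 1873 to 3424) overlapped between the MNEB libraries and the others.

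Markers of other cell types differed between the same groups. The summed normalized exonic count of 9 macrophage genes (of 10 on the list) was between 9364 and 28675 per library at -4 wkpp and in SNEB cows, and between 2672 and 9947 in MNEB cows. For 4 mast cell genes (of 5) it was 1140 to 4530 against 246 to 521, and for 5 genes of lymph node and lymphatic vessel (of 6) it was 1120 to 2872 against 241 to 597. For 5 genes of skeletal muscle it was 84.8 to 355 at -4 wkpp and in SNEB cows and 1169 to 4031 in MNEB cows. The mast cell and lymphatic lists were thus lower in all 6 MNEB libraries than in the 9 others, as the exonic counts of *CD3D* and *GZMB* were, and the muscle list was higher. The macrophage list overlapped, since MNEB 1 wkpp replicate 1 (9947) stood above -4 wkpp replicate 3 (9364). Their part in the values of the 10 genes was not tested. Blood vessel endothelium (17513 to 54200), neutrophil (43.1 to 867), B and plasma cell (20.9 to 124), erythrocyte (14.7 to 351) and keratinocyte genes (60.3 to 795) overlapped between the MNEB libraries and the others. No defining marker of the macrophage, mast cell, lymphatic or muscle lists was at 0 in all libraries of a group, apart from *MYH1* in SNEB 1 wkpp. *HBA* of the erythrocyte list was at 0 in SNEB 1 wkpp and in both MNEB groups, and *KRT14* and *SLC4A1* in SNEB 1 wkpp.

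**Figure D4:**
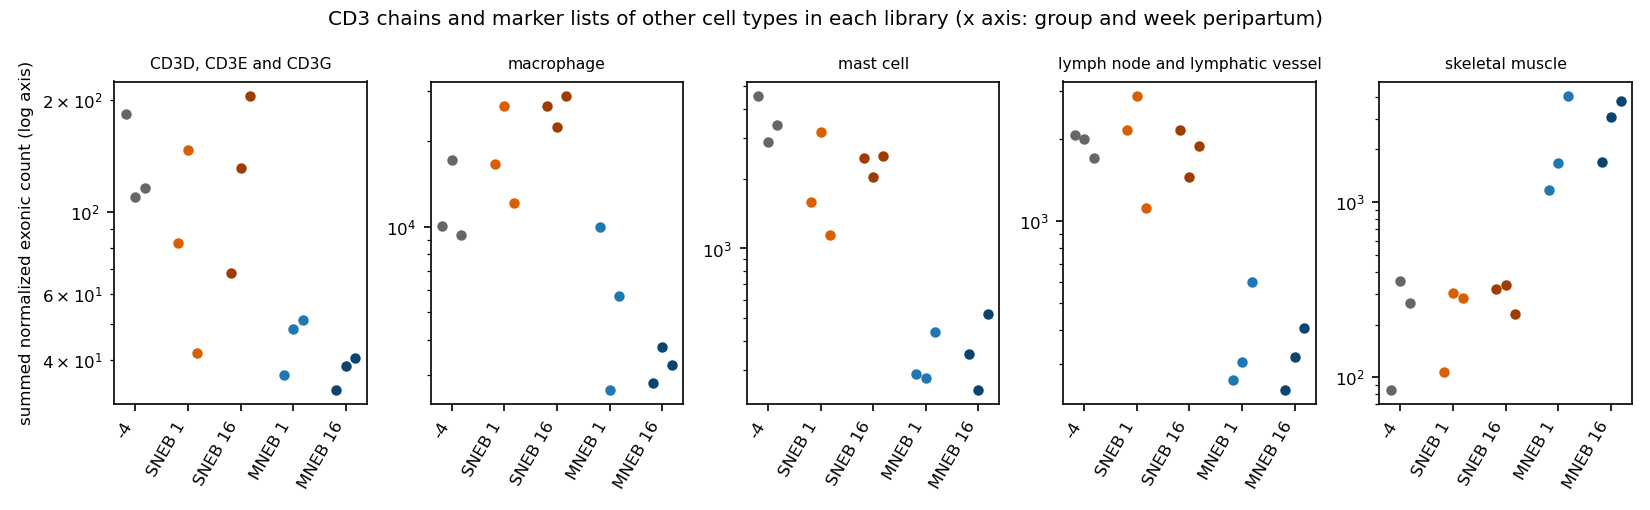
Summed normalized exonic count (log y axis) of *CD3D*, *CD3E* and *CD3G* and of 4 marker lists in each library, by group (colours as in the x labels). The CD3 sum was between 33.2 and 51.3 in the 6 MNEB libraries and between 41.8 and 204 in the 9 others, and the mast cell and lymphatic lists were lower in all 6 MNEB libraries than in all others.

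Across the 15 libraries, the genes that most resembled the mean log2 level of *CD3D*, *CD3E* and *CD3G* were sought among 10441 other genes with a mean normalized exonic count of at least 10. The 10 genes with the highest Spearman correlation were *SLC38A4* (0.946), *FCGR2B* (0.939), *SGCE* (0.929), *AOAH* (0.925), *ATP6V1D* (0.925), *CD52* (0.921), *CX3CR1* (0.921), *P2RY10* (0.921), *CPQ* (0.918) and *GALM* (0.918). The libraries differ in depth, and these 10 genes had correlations of 0.646 to 0.836 with the size factor, as had the CD3 mean itself (0.704), so the points share depth as well as libraries, and the likeness is given as a description. Among the 10 genes described here, the correlation with the CD3 mean was 0.856 for *GZMB*, 0.564 for *CD4*, 0.525 for *PRF1*, 0.404 for *LCK*, 0.261 for *CD2*, 0.136 for *CD8A* and 0.05 for *CD247*. The correlation with the size factor was 0.676 for *GZMB* and -0.221 for *CD247*.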

How the data were processed

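Total RNA of 15 libraries was sequenced by the authors on stranded, ribosome-depleted libraries, and the reads were trimmed with cutadapt 1.3, aligned with TopHat2 to bosTau8 and assigned with HTSeq (intersection-nonempty mode), once on exons and once on whole genes. The strand setting is not given in the sources used here. The deposited files are 6 tables with 13988 entries each (13896 genes and 92 spike-in RNAs), 1 for each comparison of 3 with 3 libraries. They hold, for exons and whole genes, the mean of the counts divided by DESeq2 size factors, as made by the authors, and their own log2 fold changes, standard errors, statistics and p-values, which were not used. Columns of other samples numbered 0.

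The deposited means are written with 15 significant digits, and the tables overlap in their groups. Genes with single reads gave the step of each library, and the whole read counts of the 15 libraries were recovered as the integer solution that matches all 6 means (13974 entries in exons, 13971 in whole genes, the 10 genes included). All 86 spike-ins recovered in both analyses had the same 15 counts in both, and size factors recomputed from the recovered counts differed from those read from the steps by at most 0.0759%. The group of a library follows from the tables it contributes to, but libraries could not be tied to single samples, so the replicates are numbered by depth. Entries not recovered were among the most abundant ones.

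Counts were divided by median-ratio size factors, genes with a mean of at least 10 in the libraries compared were kept, and groups were tested with limma 3.58.1 (voom, R 4.3.3), with adjustment by Benjamini-Hochberg over all genes tested. A log2 fold change is that of the first group over the second. Counting intervals and the floor of 3 reads cover counting error only. Where nothing else is said, p-values measure the spread between 3 libraries a group. The 10 genes, the lists and the tests were chosen with earlier results of these data known. All 10 genes are named, genes of the lists where called (up to 3 per direction, of which 1 is not reported here), and the 10 genes most alike the CD3 chains (a tie at the last place was kept in the order of the table). The scripts were tested on simulated data. Sequences and genome positions were not used here. Counts were recovered with numpy 2.4.6 in Python 3.11.15, tables were handled with pandas 2.3.3, intervals computed with scipy 1.17.1 and figures drawn with matplotlib 3.10.9.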

Additional observations from a re-analysis of the deposited data

How the results depend on the processing

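No gene of the 10 was called in both analyses in any of the 103 fits run, which covered library quality weights, all 15 libraries in a single fit, log2 values with pseudocounts of 1 or 4, upper quartile scaling, no filter, leaving out each library in turn and scaling to total reads (the last chosen after the data were seen). The count of called genes moved only with exonic counts alone, from 0 to 1 between -4 wkpp and MNEB 1 wkpp (*GZMB*), and with leave-one-out it stayed at 0 in each comparison. With the threshold at 0.05 in exons and whole genes, *GZMB* passed in 6 fits, of which 5 were between -4 wkpp and MNEB 1 wkpp and 1, with library quality weights, between -4 wkpp and SNEB 1 wkpp. Its exonic adjusted p-value between -4 wkpp and MNEB 1 wkpp was below 0.01 in 7 of 13 alternatives. It was above 0.01 with upper quartile scaling, with scaling to total reads and without any 1 of -4 wkpp replicates 1 and 3 and MNEB 1 wkpp replicates 1 and 3. Of the differences larger than their standard error, 1 turned its direction: *CD247* between -4 wkpp and MNEB 1 wkpp stood at 0.34 and, without a replicate, between -0.12 (without MNEB 1 wkpp replicate 1) and 0.51. The cause was not tested. Called genes among all genes depended on the setting, with 181 between -4 wkpp and MNEB 1 wkpp against 0 to 1592, 4 between -4 wkpp and SNEB 1 wkpp against 0 to 292, 0 between SNEB and MNEB at 1 wkpp against 0 to 800, and 371 between SNEB and MNEB at 16 wkpp against 34 to 490. No paired analysis was possible because the labels do not tie libraries to cows and the recovered libraries carry no replicate number of the labels. Depth limits the MNEB groups most: in MNEB 1 wkpp, 8 of the 10 genes had at most 35 exonic reads in the 3 libraries together.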
